A study of Bos taurus with 4 samples.

Results

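The proteasome subunits and ubiquitin-conjugating enzymes were followed in cattle chromaffin cells treated with a neuropeptide. Members were the mouse cDNA clones of the array whose platform annotation gave a single gene symbol beginning with Psma to Psmg, Ube2 or Uba and then a number or letter. The rule used names and no measured value. It took 197 of 36096 library spots, which are 194 of 35964 clones and 82 of 11835 gene symbols. By name they fall into the core particle (33 clones of 14 genes), the regulatory particle (36 clones of 17 genes), immunoproteasome subunits and activators (10 clones of 7 genes), assembly factors and regulators (16 clones of 8 genes), E1 enzymes (6 clones of 3 genes), ubiquitin E2 enzymes and variants (82 clones of 28 genes) and the NEDD8 enzyme Ube2f (2 clones). The other 9 clones carry 4 symbols that share the prefix but are neither a proteasome part nor an active E2.

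The proteasome is the protease complex that degrades most short-lived proteins in cytosol and nucleus. Its core particle is a barrel of alpha and beta rings with the active sites inside, and a regulatory particle at its end recognises ubiquitin, removes it, unfolds the substrate and threads it in. Ubiquitin is attached by an E1 enzyme that activates it, an E2 that carries it and an E3 ligase that selects the substrate. In secretory cells such as chromaffin cells of the adrenal medulla the same system also clears misfolded proteins of the endoplasmic reticulum.

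Cultured bovine chromaffin cells received 100 ng/ml PACAP (pituitary adenylate cyclase-activating polypeptide, a peptide that raises cyclic AMP) for 6 h at 37 C. PACAP RNA was labelled with Cy5 and hybridised with the Cy3-labelled control RNA of the same repeat number, on 1 array for each of 4 repeats, so the 4 arrays form 1 group. No array had the dyes swapped, the labels name no vehicle for the control, and their tissue entry reads brain although the cell type reads chromaffin cells. Whether the repeats came from separate animals is not given, so p-values measure only spread between these 4 arrays. In limma the SD of each clone is drawn toward the SDs of all tested clones. Intervals and p-values therefore do not follow from the printed SD of a clone alone.

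Values are log2(PACAP / control) on each array after loess normalisation, and "±" is the SD over 4 arrays (n = 4) unless another n is given. A positive value means a stronger PACAP channel. Cattle RNA met mouse sequence here, and 78 of the 82 symbols have a cattle gene of the same symbol in the RefSeq table for the ARS-UCD2.0 assembly. The brightness of a spot therefore describes hybridisation signal, not transcript amount, and levels of different clones are not compared as expression. In such bulk RNA, fewer cells of a type and less RNA per cell cannot be told apart.

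Repeat 4 stood apart from the others. Over the members, log ratios of repeats 1 to 3 correlated with each other at Pearson r of 0.231 (repeats 1 and 2), 0.338 (1 and 3) and 0.449 (2 and 3). Repeat 4 correlated with repeats 1 to 3 at 0.0452, -0.0671 and 0.0784. Over all tested clones repeat 4 gave -0.0160, -0.128 and -0.00784. It stood apart less among the brightest quintile of all clones, with 0.134, 0.143 and 0.273 against 0.327 to 0.354 among repeats 1 to 3. Among the 76 member clones in that quintile it gave 0.175, 0.0262 and 0.117, against 0.363 to 0.468. These are descriptions over up to 193 clones that share arrays and dyes. The control channel of member clones exceeded background (2 background SD) in 88.6, 71.5, 58.0 and 98.4% of cases on repeats 1 to 4, so it was weakest on repeat 3. Median values of a class are therefore also given without repeat 4.

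Marker genes were read in the control channel as percentiles of brightness among library clones. Of 11 chromaffin markers 8 were tested, at a median percentile of 94.4, but they were not uniformly bright. Chga lay at 99.7, Th at 99.3, Chgb at 97.5, Penk at 97.3 and Ddc at 91.5. Npy lay at 46.7, Scg2 at 35.4 and Slc18a1 at 7.65. Fibroblast collagens and decorin (4 of 5 tested) had 96.5, adrenal cortex markers (6 of 7) 50.2, leukocyte markers (4 of 4) 60.8 and endothelial markers (3 of 4) 40.6. Summed control signal over the repeats ran from 7064 to 73854 for the chromaffin list and from 6388 to 57709 for the fibroblast list. It ran from 1270 to 3185 for cortex, 628.9 to 4827 for leukocytes and 274.9 to 1453 for endothelium. No tested marker was undetected on every array; Slc18a1, Star, Kdr and Ptprc exceeded background in the control channel on 1 of 4. Mean log2 ratios ran from -0.30 to 0.17 in the fibroblast list, -0.50 to 1.84 in the chromaffin list, -0.71 to 0.35 in cortex, -0.45 to 0.90 in leukocytes and -0.21 to 0.55 in endothelium. The part of these cells' RNA in the members' values was not tested.

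No member passed the test. Of 193 member clones tested, limma called 0 at an adjusted p under 0.05 (all clones: 0 of 35112, which is 0%), and the lowest adjusted p was 0.454. At an unadjusted p under 0.05, 11 member clones were higher (5.70%) and 7 lower (3.63%), beside 3.92% and 6.46% of all tested clones (10.4% in either direction). Means above 0.5 were found for 32 of 193 member clones and below -0.5 for 12 of 193. Over all 35112 tested clones the counts were 3502 (9.97%) and 5478 (15.6%). The mean log ratio was above 0 for 131 of 193 member clones (67.9%), beside 48.6% of all tested clones and 52.7% of those with a single symbol. Of the 188 member clones with 4 values, 35 were higher on all 4 arrays (18.6%) and 9 lower (4.79%), beside 10.1% and 8.71% of all. The median member clone had 0.19 (0.23 without repeat 4), against -0.01 over all tested clones. By repeat the members' medians were 0.19, 0.25, 0.27 and 0.01. The values below describe these arrays and pass no test of change.

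Member clones were brighter than most of the library. Brightness, the mean percentile of the averaged log2 signal of both channels over 4 arrays, had a median of 71.1 over member clones and 47.3 over all tested clones. Regulatory particle clones were brightest, with a median percentile of 88.2, followed by immunoproteasome and activator clones at 71.0, core particle clones at 70.2, assembly factors at 62.3, ubiquitin E2 at 62.2, E1 at 59.6 and Ube2f at 24.1. 
In the control channel the median percentile of regulatory particle clones was 84.8, 84.2, 81.5 and 87.9 on repeats 1 to 4, against 60.8, 64.7, 58.0 and 76.9 for the core particle and 64.0, 64.0, 56.2 and 65.1 for ubiquitin E2 enzymes. In the PACAP channel it was 87.8, 92.1, 92.7 and 89.0 for the regulatory particle, 67.2, 81.6, 79.7 and 75.5 for the core and 66.2, 69.2, 63.4 and 69.4 for ubiquitin E2. Regulatory particle clones led in both channels of each array, and core clones lay above E2 clones everywhere except in the control channel of repeat 1. The control channel exceeded background on all 4 arrays for 29 of 36 regulatory particle clones, 17 of 33 core clones and 36 of 81 ubiquitin E2 clones, beside 31.3% of all tested clones.

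**Figure D1:**
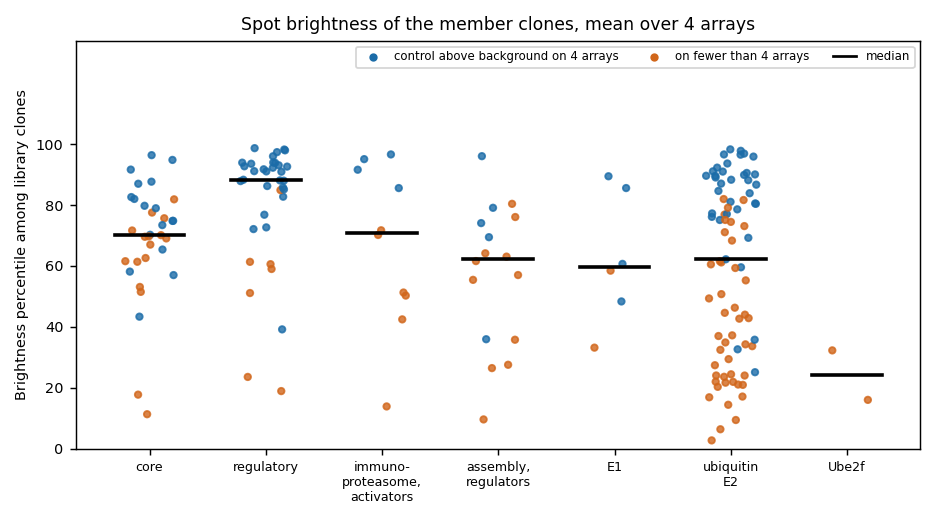
Brightness percentile of each tested member clone among library clones (vertical axis, mean over 4 arrays), by class, with a horizontal bar at the class median and colour for clones whose control channel exceeded background on all 4 arrays or on fewer. Regulatory particle clones cluster near the top with a median of 88.2, while ubiquitin E2 clones spread over nearly the whole range around 62.2.

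The brightest member clones were the 2 clones of Psmd2 (percentiles 98.7 and 98.0), 1 clone each of Ube2k (98.3) and Psmd1 (98.3), and Psme3ip1 (98.1), with mean log ratios between -0.40 and 0.13. The dimmest were clones of Ube2j2 (2.70), Ube2n (6.35), Ube2k (9.39), Psmd9 (9.59) and Psma5 (11.3). Ube2k thus has a clone at each end, which shows how far brightness depends on the clone. The single Ube2g2 clone was not tested, because its signal exceeded background on too few arrays. Psmb9, Psme2, Ube2d2, Ube2m, Uba1 and Uba2 had no clone under that single symbol and were not analysed here.

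Core particle genes, each represented by its brightest clone, had a median of 0.15 over 14 genes (0.24 without repeat 4), with 11 above 0. Their medians on repeats 1 to 4 were 0.30, 0.57, 0.14 and -0.16. Alpha ring subunits, which form the outer rings and the gate, had a higher median than beta ring subunits, 0.45 against 0.06 over 7 genes each. On repeats 1 to 4 the gene medians were 0.42, 0.73, 0.61 and -0.21 for the alpha ring. For the beta ring they were 0.25, 0.25, -0.16 and -0.12, so the order was reversed on repeat 4. Leaving out repeat 1, 2, 3 or 4 in turn gave 0.58, 0.22, 0.30 and 0.68 for the alpha ring and -0.06, -0.05, 0.08 and 0.12 for the beta ring, so the sign of the beta median depended on single arrays. Over all their clones the medians were 0.44 (20 clones) and 0.06 (13 clones), and on repeat 4 both were -0.12. Under the deposited log2 ratios, centred, 6 of 7 alpha and 3 of 7 beta genes lay above 0, and under median centring 7 and 6.

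Among alpha subunits Psma2 had 0.82, 0.73, 0.89 and 0.10 on repeats 1 to 4. All 4 values were above 0, with repeat 4 nearest to it, and the mean was 0.64 ± 0.36 (95% confidence interval 0.05 to 1.22, limma adjusted p = 0.465). Its other clones gave 0.66 ± 0.84 and 0.69 ± 0.70, close to the first, and in those the control channel passed background on 1 and 2 arrays. Psma4 had 0.51, 0.91, 1.83 and -0.54 (mean 0.68 ± 0.98). Psma3 had 0.42, 0.61, 1.65 and -0.44 (mean 0.56 ± 0.86). In both genes repeat 3 was highest and repeat 4 was the only value below 0. Psma5 had -0.02, 1.44, 0.61 and -0.22 (mean 0.45 ± 0.75), so repeats 2 and 3 alone were above 0. Psma1 had 0.83, 0.15, -0.44 and 0.25 (mean 0.20 ± 0.52). Psma6 had -1.32, 1.12, 0.58 and 0.06 (mean 0.11 ± 1.04), a spread of over 2 log2 units across the arrays.

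Psma7 has the most clones of the alpha ring. Its brightest clone had 0.01, -0.18, -0.11 and -0.21 (mean -0.12 ± 0.10), while a second clone at percentile 91.7 had 0.26, 0.36, 0.40 and 0.19 (mean 0.30 ± 0.10). Each clone was steady across the arrays, and the clones lay on opposite sides of 0. The other Psma7 clones had means of 0.30 ± 0.50, 0.49 ± 0.81 and 0.09 ± 0.54, the last titled as a different gene, a folate enzyme, in the scanner table.

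Of the beta subunits with active sites, Psmb5 (the chymotrypsin-like site) had 0.04, -0.17, -0.69 and 0.14 (mean -0.17 ± 0.37). Psmb6 (the caspase-like site) had 0.53, 0.65, -0.29 and -0.65 (mean 0.06 ± 0.63). Psmb7 (the trypsin-like site) had 0.35, 0.54, 0.21 and -0.20 (mean 0.22 ± 0.31). None of these kept 1 side of 0 on all arrays. Psmb3, a subunit without an active site, had -0.73, -1.11, -0.64 and -0.02, below 0 on all 4 arrays, with a mean of -0.63 ± 0.45 (limma adjusted p = 0.476). A second Psmb3 clone had 1.11, 1.25, 0.44 and -0.40 (mean 0.60 ± 0.75), opposite in sign on repeats 1 to 3. Psmb4 had 0.25, 0.86, 0.84 and -0.01 (mean 0.48 ± 0.43). Psmb1 and Psmb2 had means of 0.06 ± 0.24 and 0.02 ± 0.26, while a dim second clone of Psmb1 (percentile 17.7) had -1.30 ± 1.71.

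**Figure D2:**
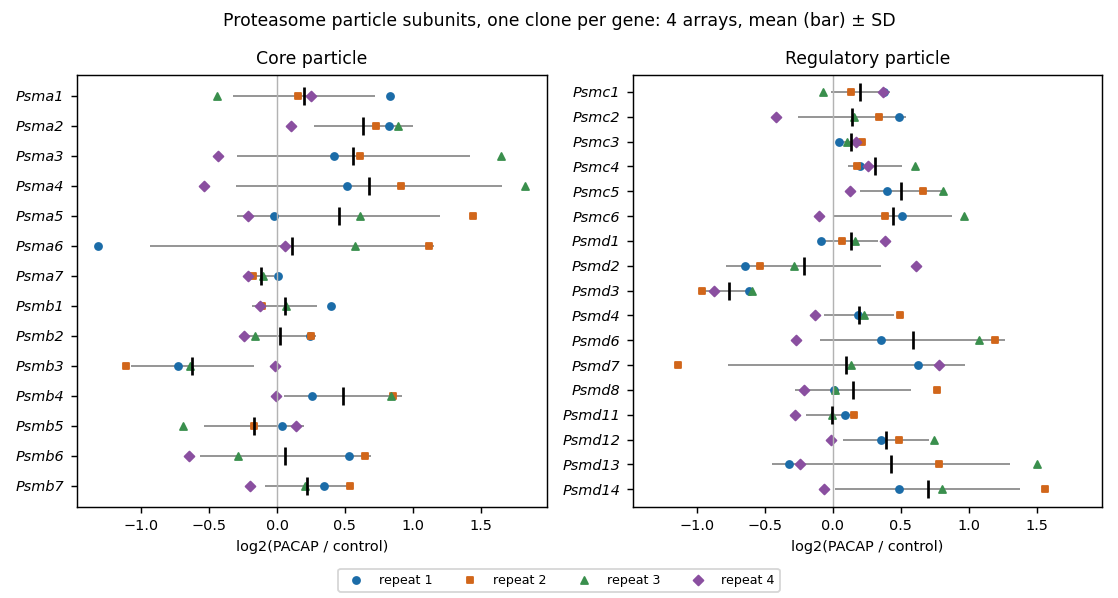
Log2(PACAP / control) of the brightest clone of each core particle gene (left) and regulatory particle gene (right), with 1 symbol per repeat, a black bar at the mean and a grey line for its SD (n = 4). Most means lie above 0, Psmd3 and Psmb3 lie below it on all 4 arrays, and repeat 4 (diamonds) is often the lowest value.

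Regulatory particle genes had a median of 0.19 over 17 genes (0.30 without repeat 4), with 14 above 0. By repeat their medians were 0.20, 0.34, 0.16 and -0.07. The ATPases of the base, which unfold the substrate and open the gate, had a median of 0.26, and all 6 were above 0. That count was 6 of 6 in each setting tried except the deposited log2 ratios, centred, where it was 5 of 6 with Psmc1 below 0. Their medians by repeat were 0.39, 0.28, 0.38 and 0.15.

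Psmc5 had 0.40, 0.66, 0.81 and 0.13 (mean 0.50 ± 0.30, 95% confidence interval -0.07 to 1.07, limma adjusted p = 0.499). Its other clones had means of 0.36 ± 0.28 and 0.48 ± 0.17, so all 3 clones lay above 0 on every array. Psmc6 had 0.51, 0.38, 0.97 and -0.10 (mean 0.44 ± 0.44). Psmc4 had 0.20, 0.17, 0.60 and 0.26 (mean 0.31 ± 0.20). These ATPases differed in whether repeat 4 lay below 0. Psmc1 had 0.38, 0.13, -0.07 and 0.37 (mean 0.20 ± 0.21), Psmc2 had 0.48, 0.34, 0.16 and -0.42 (mean 0.14 ± 0.40), and Psmc3 had 0.04, 0.22, 0.10 and 0.17 (mean 0.13 ± 0.08). The intervals of Psmc1 and Psmc3 ran from -0.35 to 0.75 and from -0.40 to 0.66. A dimmer Psmc3 clone had a mean of -0.11 ± 0.77.

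The 11 non-ATPase genes had a median of 0.15, with 8 above 0. Psmd14, the deubiquitinase of the lid that removes ubiquitin chains, had 0.48, 1.56, 0.81 and -0.07, above 0 on repeats 1 to 3. Its mean was 0.70 ± 0.68 (95% confidence interval -0.01 to 1.41, limma adjusted p = 0.480), and a second clone had 0.07 ± 1.59. Psmd7, its partner in the lid, had 0.63, -1.14, 0.13 and 0.78 in its brightest clone (mean 0.10 ± 0.87). A second Psmd7 clone had 0.53, 0.82, 0.62 and 1.10 (mean 0.77 ± 0.25). The clones differed most on repeat 2.

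Psmd3, a lid subunit, had -0.62, -0.97, -0.60 and -0.88. All 4 values lay close together below 0, with a mean of -0.76 ± 0.19 (95% confidence interval -1.31 to -0.22, limma adjusted p = 0.454). Its second clone had -0.17 ± 0.35. Psmd2, a scaffold subunit of the base, had -0.65, -0.54, -0.29 and 0.61 (mean -0.22 ± 0.57), and its second clone -0.40 ± 0.31. Under median centring the Psmd2 value changed sign.

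Other lid subunits were mostly above 0. Psmd6 had 0.36, 1.19, 1.08 and -0.27 (mean 0.59 ± 0.68), Psmd12 had 0.35, 0.49, 0.75 and -0.01 (mean 0.39 ± 0.32), and Psmd13 had -0.32, 0.78, 1.50 and -0.25 (mean 0.43 ± 0.87). Psmd12 had 3 clones at 0.39, 0.38 and 0.25. Psmd8 (0.15 ± 0.43), Psmd11 (-0.01 ± 0.19) and the scaffold subunit Psmd1 (0.13 ± 0.20) lay near 0. Psmd4, a ubiquitin receptor, had 0.18, 0.50, 0.23 and -0.14 (mean 0.19 ± 0.26). Its 3 clones agreed in sign, and 1 of them is titled as a repressor protein.

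The immunoproteasome subunits and activators had a median of 0.30 over 7 genes (0.35 without repeat 4), with 6 above 0. Psme1, part of the ring activator that caps the core in place of the regulatory particle, had 0.25, 0.53, 0.00 and 1.13 in its brightest clone (mean 0.48 ± 0.49, limma adjusted p = 0.534). The other Psme1 clones had 0.23, 0.69, 0.67 and 0.14, and 0.37, 0.78, 0.65 and 0.17. All 3 clones had means between 0.43 and 0.49, although the brightest ranked the arrays differently. Psme3, the nuclear activator, had 0.30, 1.66, 1.48 and 0.23 (mean 0.92 ± 0.76, limma adjusted p = 0.454), the highest mean of this class. Its control signal exceeded background on 1 of 4 arrays, so the size of the ratio is uncertain. Psme4, another activator, had 0.28, 0.42, 0.58 and -0.08 (mean 0.30 ± 0.28).

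Psmb8 and Psmb10 replace standard catalytic subunits after interferon. Psmb8 had -0.15, 0.17, 0.25 and -0.88 (mean -0.16 ± 0.52) from a dim spot at percentile 13.9, and Psmb10 had 0.72, -0.21, 0.33 and 0.27 (mean 0.28 ± 0.38). Psmb11, the catalytic subunit of thymus epithelium, had 0.48 ± 0.45, and Psme2b, a copy of the Psme1 partner, 0.17 ± 0.50. Neither interferon-inducible subunit kept 1 side of 0 on all arrays.

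Assembly factors and regulators had a median of 0.06 over 8 genes (0.07 without repeat 4), with 5 above 0; under print-tip loess it was -0.06 and from the deposited ratios, centred, -0.65. Psmg2, a chaperone of core assembly, had 1.08, 0.24, 1.04 and -0.02 (mean 0.59 ± 0.56), and its second clone 0.39 ± 0.48. Psmg3, which acts in the same step, had -0.99, 0.37, -2.27 and -0.29 (mean -0.79 ± 1.13), and its second clone 0.29 ± 0.26. Psmg1 (0.09 ± 0.51) and Psmg4 (0.05 ± 0.54) lay near 0. The base chaperones were Psmd10 at 0.40 ± 0.89, Psmd5 at 0.06 ± 0.69 and Psmd9 at -0.22 ± 0.19. Psmd10 had 4 clones, of which 2 were above 0 and 2 below. The proteasome inhibitor Psmf1 had -0.13, 0.24, 0.38 and -0.90 (mean -0.10 ± 0.58).

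Of the E1 enzymes 3 were measured, and the main ubiquitin E1 was not analysed here. Their median was -0.39 (-0.42 without repeat 4), and it was 0.10 where the clones of a gene were averaged. Uba3, the catalytic subunit of the NEDD8 E1, had 0.40, 0.30, -0.03 and -0.27 (mean 0.10 ± 0.31, 95% confidence interval -0.47 to 0.67). Uba7, the E1 of the interferon-induced modifier ISG15, had -1.59, -1.83, -2.75 and 0.11, below 0 on repeats 1 to 3 and above it on repeat 4. Its mean was -1.52 ± 1.19 (95% confidence interval -2.50 to -0.53, limma adjusted p = 0.454). Its spots were small, 28.5 pixels at the median, against 109.0 pixels over all tested clones. Uba6, a second ubiquitin E1, had 4 clones with means of -0.39 ± 0.13, 0.37 ± 0.65, 1.51 ± 1.24 and -0.99 ± 1.20, from brightest to dimmest. The brightest is titled as another gene, a Notch ligand, and the next but one, titled as the enzyme itself, had 0.31, 2.77, 2.38 and 0.59 and its control channel passed background on 2 arrays. The clones of Uba6 thus do not give 1 direction.

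Ubiquitin E2 enzymes and variants had a median of 0.17 over 27 tested genes (0.05 without repeat 4), with 19 above 0. Over their 81 tested clones it was 0.09, with 48 above 0. Their clone medians were 0.14, 0.17, 0.17 and 0.16 on repeats 1 to 4, and their gene medians 0.05, 0.06, 0.28 and 0.29, so the evenness held over clones and not over genes. On either count repeat 4 was not the lowest, as it was in both proteasome particles. Of the 15 member genes above 0 on all 4 arrays, 9 were in this class, which is 33.3% of its tested genes. Over its clones it was 18 of 77 (23.4%), beside 10.1% of all tested clones and 16.6% of those in the brightest quintile. Among base ATPase genes 3 of 6 were above 0 on all 4 arrays, so this is not particular to E2 enzymes.

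The Ube2e enzymes, which have an extended amino terminus, were all above 0 on every array in their brightest clone. Ube2e1 had 0.42, 0.57, 1.85 and 0.78 (mean 0.90 ± 0.65, limma adjusted p = 0.454), with a second clone at 0.51 ± 0.32. Ube2e2 had 0.63, 0.18, 1.16 and 0.85 (mean 0.71 ± 0.41). Repeat 3 was the highest in both, where the control channel was weakest, and control signal exceeded background on 2 and 3 of 4 arrays. Ube2e3 had 0.23, 1.04, 0.12 and 0.42 (mean 0.45 ± 0.41), and a dim second clone of Ube2e2 had -0.09 ± 0.38.

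The Ube2d enzymes work with many E3 ligases. Ube2d3 had 0.72, 0.63, 0.52 and 0.26 in its brightest clone (mean 0.53 ± 0.20, 95% confidence interval -0.01 to 1.08, limma adjusted p = 0.480), a steady value above 0. Of its 6 clones 5 had means above 0, between 0.06 and 0.68, and the exception, -0.36 ± 0.96 (n = 3), came from a dim spot. Ube2d2a had -0.04, 0.47, 0.31 and 0.11 (mean 0.21 ± 0.22), with 4 of 5 clones above 0. Ube2d1 had -0.02 ± 0.37. From the deposited ratios, centred, the brightest clones of Ube2d3 and Ube2d2a lay below 0. Ube2d sequences are alike, so cross-hybridisation among them cannot be told apart from their own signal here.

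Ube2a and Ube2b, the pair related to yeast Rad6, differed between their brightest clones. Ube2b had 0.23, 0.96, 0.81 and 0.92 (mean 0.73 ± 0.34, 95% confidence interval 0.15 to 1.31, limma adjusted p = 0.454), and Ube2a had 0.06, -0.12, -0.56 and -0.98 (mean -0.40 ± 0.47). The difference between the genes was not tested. The other 3 Ube2b clones, all at percentile 46.3 or lower, had means of -0.13 ± 0.59, -0.45 ± 0.62 and -0.51 ± 0.58, while the other Ube2a clones had -0.11 ± 0.38 and 0.51 ± 0.43. The dimmer clones did not repeat the contrast.

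Ube2l3, which serves ligases of the HECT and parkin types, had the most clones of any member. Its brightest clone had 1.10, 0.10, 0.01 and 0.34 (mean 0.39 ± 0.50). Of 7 clones, 6 had means between 0.18 and 0.39, and the dimmest had -0.09 ± 1.13. A second clone had 0.37, 0.53, 0.40 and 0.18, and another had 0.60, 0.44, 0.15 and 0.29, each above 0 on every array. Ube2k, which builds degradation chains, had -0.18, 0.22, 0.11 and 0.26 (mean 0.10 ± 0.20), and 4 of its 5 clones were above 0, up to 0.64 ± 0.40 (n = 3).

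Ube2n and its partners Ube2v1 and Ube2v2 build chains that serve signalling and DNA repair. Ube2n had -0.17, -0.97, 0.19 and 0.25 (mean -0.17 ± 0.56), Ube2v1 had 0.15, 0.04, -0.16 and 0.97 (mean 0.25 ± 0.50), and Ube2v2 had -2.02, 0.06, 0.28 and 0.46 (mean -0.31 ± 1.15). A single array set the sign in Ube2n and Ube2v2. A Ube2v1 clone with 0.82, 1.04, 1.10 and 0.45 (mean 0.85 ± 0.30) is titled as a histone acetyltransferase, and its identity is uncertain.

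Enzymes of the cell division ligase APC/C were Ube2c, at -0.53, -0.45, 1.61 and 0.15 (mean 0.20 ± 0.99), and Ube2s. The brightest Ube2s clone, titled as another gene, had 0.17 ± 0.32. A second Ube2s clone had 0.50, 0.35, 0.40 and 0.42, with a mean of 0.42 ± 0.06, and the other 0.63 ± 0.59. Ube2t, of the Fanconi anaemia pathway, had -0.17 ± 0.59.

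Enzymes of degradation at the endoplasmic reticulum gave no common direction. Ube2j1 had -0.10, -1.28, -1.95 and 0.36 (mean -0.74 ± 1.06), Ube2j2 had 0.04 ± 0.57, and Ube2g1 had -0.16, 0.83, 0.42 and -0.71 (mean 0.10 ± 0.67). All 4 Ube2j1 clones were dim, at percentiles 14.4 to 25.1, with means from -0.74 to 0.07. Ube2j2 clones ran from -0.90 ± 0.55 (n = 3) to 0.52 ± 0.27. A Ube2g1 clone with a mean of -1.73 ± 1.63 reached -3.94 on repeat 3.

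Of the remaining E2 enzymes, Ube2z, which is loaded by Uba6, had 0.58, 0.91, 0.27 and 0.52 (mean 0.57 ± 0.27, limma adjusted p = 0.475). Ube2w, which modifies amino termini, had 0.26, 0.34, 1.05 and 0.30 (mean 0.49 ± 0.38). A second Ube2w clone had -1.46 ± 1.67 from small spots (17.5 pixels at the median). Ube2r2, an enzyme of cullin ligases, had 0.38, 0.31, 0.37 and 0.28 (mean 0.33 ± 0.05), the smallest spread of the class. Its dimmest clone had 0.86 ± 0.46 and the remaining one -0.09 ± 0.28. Ube2q1 had -0.38, -0.53, -0.28 and -0.30 (mean -0.37 ± 0.11), below 0 on all arrays, and its other clones had -0.24 ± 0.18 and -0.11 ± 0.37; under median centring the brightest lay above 0. Ube2h (0.23 ± 0.42), Ube2o (0.11 ± 0.34), Ube2q2 (0.09 ± 0.69, from a clone titled as dyskerin) and Ube2ql1 (-0.02 ± 0.74) lay nearer 0 than their spread. A second Ube2ql1 clone had -1.28 ± 1.38 from spots of 26.5 pixels. Ube2f had 0.03, -1.44, 0.13 and 0.24 (mean -0.26 ± 0.80).

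**Figure D3:**
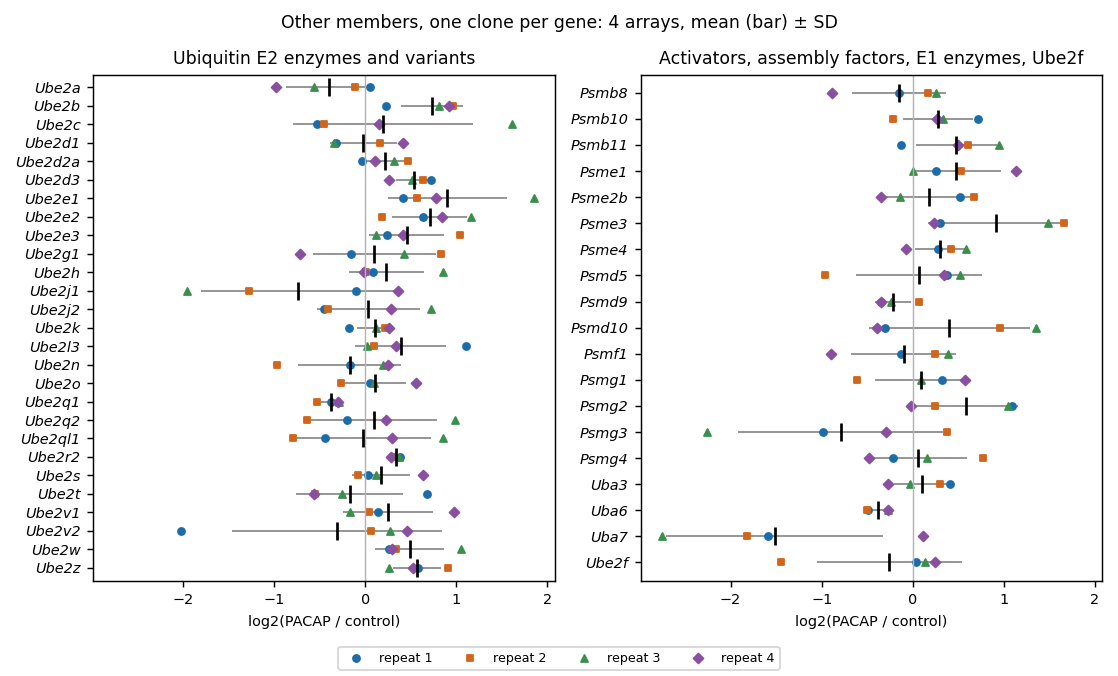
Log2(PACAP / control) of the brightest clone of each ubiquitin E2 gene (left) and of each activator, assembly factor, E1 enzyme and Ube2f (right), with 1 symbol per repeat, a black bar at the mean and a grey line for its SD (n = 4). Ube2e1, Ube2e2, Ube2b, Ube2d3 and Ube2z lie above 0 on every array, and Uba7 spans from -2.75 to 0.11.

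The symbols outside these classes were Psmc3ip, a recombination factor (0.19 ± 0.21), Psme3ip1, which binds Psme3 (-0.11 ± 0.17), Ube2cbp, an E2-binding ligase (0.21 ± 0.39), and the pseudogene Ube2d-ps (0.33 ± 0.88). No member of this group was above or below 0 on all 4 arrays.

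Several clones of a gene are separate spots of the same RNA, not replicates. Of 63 genes with 2 or more tested clones, 25 had all clone means above 0, 9 all below and 29 on both sides. The same counts over other genes are not given, and 67.9% of all member clones lay above 0. The counts therefore cannot be read as agreement between clones of a gene. The median SD between clones of a gene was 0.23, taken over clone means that each average the arrays. Between the single array values of a clone it was 0.46. A mean over arrays varies less than a single array, so these SDs do not show that clones agree better than arrays. As examples chosen after their values were seen, clone means lay close together in Psma2, Psmc5, Psmd12 and Psme1 and far apart in Uba6, Ube2g1, Ube2j2 and Ube2w.

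**Figure D4:**
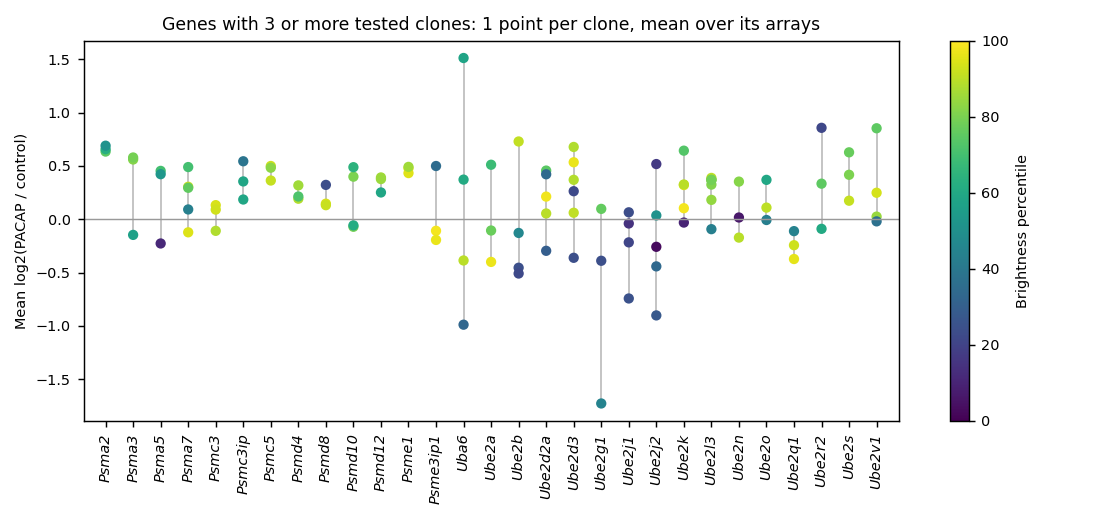
Mean log2(PACAP / control) of each tested clone (vertical axis) of the 29 member genes with 3 or more tested clones, coloured by brightness percentile, with a grey line from the lowest to the highest clone. The 3 clones of Psma2 sit between 0.64 and 0.69, while the 4 clones of Uba6 run from -0.99 to 1.51.

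Clone medians of the core particle were 0.29, 0.61, 0.36 and -0.12, those of the regulatory particle 0.19, 0.38, 0.30 and -0.06, and those of the immunoproteasome and activators 0.26, 0.64, 0.62 and 0.16. On repeat 4, 31.3% of core clones and 44.4% of regulatory particle clones were above 0, against 62.0% of ubiquitin E2 clones and 49.9% of all tested clones. On repeat 2 the shares were 75.8% for the core, 77.8% for the regulatory particle and 58.0% for ubiquitin E2. Among genes, 5 of 14 core and 10 of 17 regulatory particle genes were above 0 on repeats 1 to 3, and 4 and 7 of these were below 0 on repeat 4. Of 10 such ubiquitin E2 genes, 1 was below 0 on repeat 4. Of all 81 member genes, 30 were above 0 on repeats 1 to 3, and 15 of these were below 0 on repeat 4. The same counts over all tested clones are not given, so these counts cannot be read as a trait of a class. Repeat 4 also had the brightest control channel, with a median control signal of 1098 over member clones against 152.7 to 427.7 on the others. Over all tested clones it was 578.7 against 130.4 to 311.9, so this was not particular to the members. The part of that control signal in these values was not tested.

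**Figure D5:**
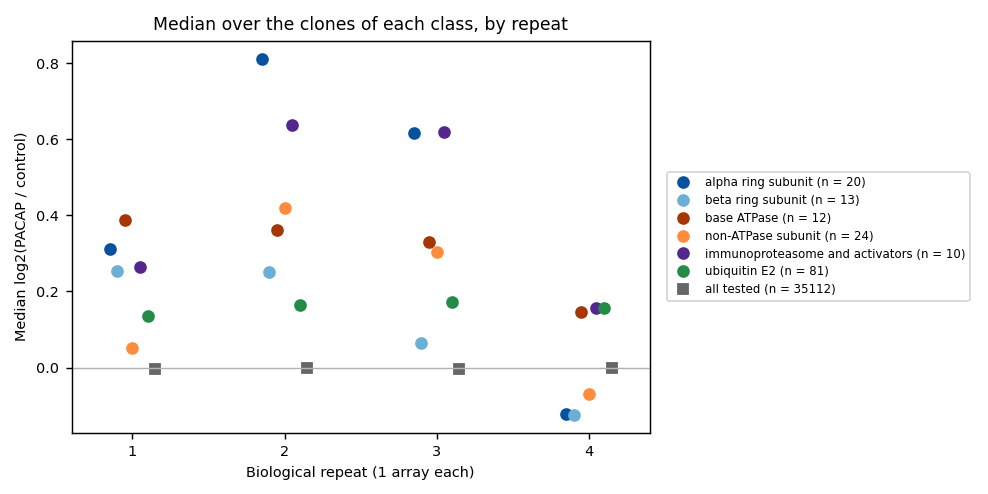
Median log2(PACAP / control) over the tested clones of each class (vertical axis) on each repeat (horizontal axis, 1 array each), with all tested clones as grey squares. Alpha ring clones lie highest on repeat 2 at 0.81 and at -0.12 on repeat 4, while ubiquitin E2 clones stay between 0.14 and 0.17.

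Log ratios moved with brightness over the whole array, so members were set beside clones of like brightness. Over all tested clones, the medians by quintile of brightness, dimmest first, were -0.19, -0.11, 0.06, 0.09 and 0.04. Member clones in the same quintiles (20, 24, 19, 54 and 76 clones) had medians of -0.12, -0.02, 0.09, 0.34 and 0.21. In the brightest quintile 76.3% of member clones and 54.6% of all clones lay above 0, and in the next 81.5% and 59.5%. With median centring in place of loess, the brightest quintile had 0.76 for members and 0.53 for all clones, and from the deposited ratios, centred, -0.08 and -0.78. The difference between members and other clones was not tested, since members were chosen with results known.

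Other genes of the ubiquitin system came from a list of 149, of which 126 were tested. Their median was 0.04, with 68 above 0. Limma called 0 of them, and at an unadjusted p under 0.05, 13 were higher and 4 lower (of all clones 3.92% and 6.46%). Deubiquitinases, which remove ubiquitin, had a median of 0.35 over 27 tested genes, with 21 above 0 and 8 higher and 0 lower at an unadjusted p under 0.05. Deubiquitinase medians on repeats 1 to 4 were 0.12, 0.37, 0.72 and 0.21, so the highest came from the array with the weakest control channel. E3 ligases had -0.06 over 34 genes, cullin ligase parts 0.09 over 20, shuttle factors and segregase parts -0.13 over 13, COP9 signalosome subunits 0.04 over 8 and ubiquitin-like modifiers 0.08 over 6. E1 and E2 enzymes of other names had -0.10 over 3 and -0.04 over 6, and proteasome parts of other names had 0.05 over 9.

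Among deubiquitinases, Uchl3 had 0.96, 1.60, 1.19 and 0.85, above 0 on all arrays, with a mean of 1.15 ± 0.33. Usp16 had 0.55, 1.28, 1.16 and 0.74 (mean 0.93 ± 0.35). Uchl5, a deubiquitinase bound to the proteasome, had 0.90, 0.54, 1.09 and 0.14 (mean 0.67 ± 0.42), and Usp14, also bound to it, 0.49 ± 0.53. Their adjusted p did not pass. The others with an unadjusted p under 0.05 were Cyld (0.93 ± 0.81), Stambp (0.79 ± 0.48), Usp8 (0.79 ± 0.81), Usp47 (0.75 ± 0.66) and Usp15 (0.59 ± 0.37). Control signal passed background on 2 of 4 arrays for Cyld, Stambp and Usp47, on 3 for Usp8 and on 4 for Usp15. Repeat 3 was highest in Cyld (1.91), Stambp (1.49), Usp8 (1.92) and Usp47 (1.51), and repeat 2 in Usp15 (0.94). The size of the ratios from dim control spots is uncertain.

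Proteasome genes under other names included Pomp, which matures the core particle, at 0.85, 1.25, 0.38 and 0.10 (mean 0.64 ± 0.51). Sem1, a small lid subunit, had -0.73, -0.82, -0.10 and -1.14 (mean -0.70 ± 0.44). Nfe2l1, the transcription factor that raises proteasome genes when proteasome activity is low, had -0.77, -0.79, -0.49 and -0.65 (mean -0.67 ± 0.14), but its clones split, with 2 of 4 above 0. Of Sem1 clones 1 of 3 was above 0. The remaining listed genes at an unadjusted p under 0.05 were Cul5 (1.10 ± 1.11), Sae1 (0.88 ± 0.95), Cblb (0.83 ± 0.41) and Cul3 (0.76 ± 0.52) above 0, and Rnf7 (-0.65 ± 0.28) and Skp1 (-0.59 ± 0.23) below it. Control signal passed background on 2 of 4 arrays for Cul5, Sae1 and Cblb, and on 4 for Cul3, Rnf7 and Skp1. Other clones went the opposite way in Skp1 (3 of 4 above 0), Cul5 (1 of 2 below 0), Cul3 (1 of 4 below), Sae1 (1 of 3 below), Usp16 (1 of 4 below) and Usp47 (2 of 5 below).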

How the data were processed

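The scanner tables were taken as deposited; per the file headers they hold linear intensity and local background for each channel and a spot area. No source used here names the image program. From the values, background had been subtracted from mean intensity before deposit, so none was subtracted again. The deposited ratio is Cy5 over Cy3 divided by 1 calibration factor per array (1.69, 1.97, 1.53 and 0.432). The authors' deposited series table holds log2 ratios, used as an alternative and for naming: it was joined by plate position (35825 of 35873 entries joined, of which 92.2% lay within 0.1 log2 units on all 4 arrays).

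With intensity set to at least 1, log2(Cy5 / Cy3) was adjusted by global loess (span 0.3, 4 iterations) in limma 3.58.1 (R 4.3.3). A clone was tested against 0 if either channel passed 2 background SD on 3 or more of the 4 arrays, with lmFit and eBayes (2-sided, Benjamini-Hochberg over all 35112 clones). Spots of 1 clone were averaged, and a gene is represented by its brightest clone. Clone titles in the scanner table held a proteasome or ubiquitin word, or another name of such a gene, for 97 member clones. They named another gene for 7 and were uninformative for 90. The 97 were matched by these words and not each compared with the symbol, so they do not establish the identity of single clones. On simulated data, 1 of 67, 28 of 67 and 48 of 66 clones changed by 1, 2 and 3 log2 units were called among 33267, with 0 false calls. Tables and plots used pandas 2.3.3 and matplotlib 3.10.9 in Python 3.11.15.

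The members, the marker and pathway lists and the classes were chosen with earlier results of these data known. Genes to name were up to 5 of smallest p, the 2 highest and 2 lowest means in each class, genes with 3 or more clones, the 5 brightest and 5 dimmest clones and a fixed list, and the remaining members were added after their values were seen. Listed pathway genes were named at an unadjusted p under 0.05, and Usp14 was added after its value was seen. Alternatives were another background correction, normalisation, floor, filter, spot size, moderation and value table, and leaving out each repeat. The number of arrays limits the precision, and no sequences are shown because no table used here holds them.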

Additional observations from a re-analysis of the deposited data

Results flagged for a closer look

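For 8 of 94 sets of 4 array values examined (81 genes and 13 class medians), 1 array lay far from the other 3; chance flags about 1 in 20 such sets. Repeat 2 was the lowest in Psmd5, at -0.97 against 0.34 to 0.52 on the others. It was also the lowest in Ube2cbp, at -0.37 against 0.37 to 0.48, and in Ube2f, at -1.44 against 0.03 to 0.24. The class of E2 enzymes for ubiquitin-like proteins holds Ube2f alone, so its median stood apart with the same value of -1.44. Repeat 3 was the highest in the pseudogene Ube2d-ps, at 1.65 against -0.19 to -0.02, in Ube2h, at 0.85 against -0.02 to 0.09, and in Ube2w, at 1.05 against 0.26 to 0.34. Repeat 1 was the lowest in Ube2v2, at -2.02 against 0.06 to 0.46. Repeat 4 was the array apart in 0 of these sets.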

How the results depend on the processing

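The test was already paired, because each array holds both samples of a repeat and their ratio was tested, so no replicate block can be added. Members called numbered 0 in each setting except the deposited log2 ratios, centred, where 1 was called, Uba7 at -4.75 (limma adjusted p = 0.0405); there 0.934% of all clones were called and the median of all clones was -0.30, against at most 0.04 from 0 elsewhere. Members higher at an unadjusted p under 0.05, 11 in the report, numbered 48 with median centring, 23 with print-tip loess, 5 with deposited ratios, 20 with trend and robust moderation and 5 where the control passed background on all 4 arrays. Leaving out each repeat gave 8 to 17. Those lower, 7 in the report, numbered 26 with deposited ratios, 4 with spots of 60 pixels or more and 11 with trend and robust moderation, and leaving out each repeat gave 3 to 9. Shares of all clones at an unadjusted p under 0.05 are not given for these settings. The counts therefore cannot be read as a trait of the members. With median centring the brightest quintile of all clones had a median of 0.53.

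With median centring the class medians over genes were 0.53 (core), 0.82 (regulatory), 0.56 (immunoproteasome and activators), 0.078 (E1), 0.43 (ubiquitin E2), 0.55 (all members) and 0.44 (pathway list). With deposited ratios they were 0.92 (core), 0.71 (immunoproteasome and activators), -0.65 (assembly), -2.51 (E1), 0.50 (ubiquitin E2), 0.30 (all members) and 0.40 (pathway list). E1 had -0.58 with print-tip loess, -0.15 with spots of 60 pixels or more, 0.10 with clones averaged and 0.10 without clones titled as another gene. All members had 0.11 where the control passed background on all 4 arrays; these last 2 alternatives were chosen after seeing the data. Leaving out each repeat gave 0.28 to 0.43 for the immunoproteasome class and 0.029 to 0.095 for the pathway list. The causes were not tested.

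Brightness percentiles from the control channel alone, over genes by their brightest clone, were 67.6 (core), 87.3 (regulatory), 59.3 (immunoproteasome and activators), 68.0 (assembly), 80.8 (E1), 69.0 (ubiquitin E2) and 69.5 (all members). Over clones, the unit used for brightness above, they were 58.5, 84.7, 61.0, 52.4, 59.1, 59.5 and 60.4. Over genes and both channels the core had 77.3 and all members 79.8. Leaving out each repeat there gave 75.4 to 82.1 for the core and 78.9 to 82.8 for all members. Of 81 genes, 36 kept 1 sign in each setting in which they had a value, 30 above 0 and 6 below, and values existed for 70 genes where both channels had to pass background and 80 at 60 pixels; deposited ratios turned 24 and median centring 13.

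The limits are 4 arrays of unknown independence, no dye swap, mouse clones read with cattle RNA, and a control channel above background on all 4 arrays for 50.3% of member clones. A ratio from a dim spot has no firm size.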

Other observations

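Another 34 library clones have titles containing the words for proteasome, ubiquitin-activating or ubiquitin-conjugating but are no members, some of them ligases or binding proteins, and 12 have no symbol. Some carry the symbol of an unrelated gene, such as Gpx3 and Atp1b1. The median log2 ratio of the 34 clones was 0.28, from -0.61 to 1.01. Of the 34, 26 were above 0 and 3 higher at an unadjusted p under 0.05, beside 48.6% and 3.92% of all tested clones. This mixed set gives no separate test of the members. Clones titled as the X-linked ubiquitin-activating enzyme E1 had -0.15 ± 0.40 and 0.16 ± 0.38 (SD, n = 4), at brightness percentiles 97.9 and 99.1. A clone titled as the endoplasmic reticulum enzyme E2G 2 had -0.11 ± 0.34. These names rest on the titles alone.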
